A study of Mus musculus with 14 samples.

Results

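The mitochondrial chromosome carries 37 of the 54532 genes in the ileum count table, chosen as every gene that the table places on chromosome MT. They are 13 mRNA genes, 2 rRNA genes and 22 tRNA genes. The RNA was extracted from ileum mucosa, 1 library per mouse, and the mice were all male, 7 WT and 7 IKO. WT mice carried NCoR1 flox/flox alleles without Cre. IKO mice carried the same floxed alleles with Cre recombinase under the villin promoter, which is active in intestinal epithelial cells. The mice were kept on a high-fat diet (HFD, 60% of energy from fat) for 15 weeks. The methods of the paper give an age of 7 to 8 weeks when feeding began. A figure legend of the paper gives an older age, with chow before the HFD, and neither names the sequenced mice. NCoR1 is a nuclear receptor corepressor. The mucosa also holds cells in which the villin promoter is silent, and in bulk RNA fewer cells of a type and less RNA per cell cannot be told apart.

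Mitochondria keep a small circular genome of their own. Its 2 strands are each copied into long RNAs, and the tRNAs that lie between the other genes are released from them, which frees the mRNAs and rRNAs as well. All of its proteins are subunits of the respiratory chain complexes and of ATP synthase. The remaining subunits, and every protein needed to copy, transcribe and translate this genome, are encoded in the nucleus. Absorptive cells of the ileum depend on oxidative phosphorylation for nutrient and bile acid transport.

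The sequences that matter for reading the counts are the shortest and the most repeated. Of the 37 genes, 28 lie on the + strand and 9 on the − strand, namely mt-Nd6 and 8 tRNA genes. All 37 have the same identifier, start and end in the GENCODE vM21 annotation of GRCm38, from which the sequences below were taken. The following 3 tRNA genes, all on the − strand, held between 85.1% and 94.8% of the tRNA counts of each library. Capitals mark the anticodon, and mt-Tp (MT:15356-15422), mt-Tc (MT:5192-5257) and mt-Tn (MT:5089-5159) carry proline, cysteine and asparagine.
mt-Tp: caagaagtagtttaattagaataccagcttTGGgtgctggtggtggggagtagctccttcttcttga
mt-Tc: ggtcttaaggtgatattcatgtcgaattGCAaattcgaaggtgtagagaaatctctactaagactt
mt-Tn: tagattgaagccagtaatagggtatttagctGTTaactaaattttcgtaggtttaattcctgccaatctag
The next sequence is mt-Ts2 (MT:11613-11671), a serine tRNA that lacks the D arm of other tRNAs. At 59 bases it is shown because it was the single member past the test for genotype.
mt-Ts2: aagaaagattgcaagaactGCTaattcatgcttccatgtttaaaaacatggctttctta

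Neighbouring genes lie end to end or overlap. mt-Atp8 and mt-Atp6 share the 43 bases at MT:7927-7969, printed with the start codon of mt-Atp6 and the stop codon of mt-Atp8 in capitals, and mt-Nd4l and mt-Nd4 share 7 bases.
mt-Atp8/mt-Atp6 overlap: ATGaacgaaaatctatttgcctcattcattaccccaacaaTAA
A stretch of chromosome 1 (1:24611535-24616197 on the − strand) holds a nuclear copy of part of the mitochondrial genome, annotated as 7 pseudogenes. Gm28437 matched mt-Co3 at 783 of 783 aligned bases, Gm10925 matched mt-Atp6 at 678 of 678, Gm28661 matched mt-Co2 at 681 of 681 and Gm10222 matched mt-Nd4l at 294 of 294. Gm28438 matched mt-Nd3 at 344 of 345 bases, and the first 60 bases of both are printed with the differing base in capitals (T3C, counted from 1 at the first base of mt-Nd3).
mt-Nd3: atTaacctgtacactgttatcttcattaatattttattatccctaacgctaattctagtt
Gm28438: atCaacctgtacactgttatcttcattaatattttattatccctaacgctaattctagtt
Gm28439 matched mt-Nd4 over 876 bases, and Gm29216 matched mt-Co1 at 482 of 483. A read from such a stretch cannot be placed by its sequence alone. Of all windows of 150 bases, the read length, 99.8% of those in mt-Co3 also occurred in another annotated transcript, as did 99.4% in mt-Atp6, 99.4% in mt-Co2, 98.0% in mt-Nd4l and 97.0% in mt-Nd3. The share was 59.2% in mt-Nd4 and 23.6% in mt-Co1, and 0 in mt-Cytb, mt-Nd1, mt-Nd2, mt-Nd5, mt-Nd6, mt-Atp8 and both rRNA genes. Only annotated transcripts were searched, so bases of the chromosome 1 stretch between the pseudogenes were not. mt-Atp8 lies between mt-Co2 and mt-Atp6, which both match that stretch, so its share of 0 does not show that it has no copy.

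The libraries held between 14749669 and 21557468 counts. Ncor1, the floxed gene, had between 106 and 195 CPM in WT and between 31.7 and 64.0 CPM in IKO libraries (CPM, counts scaled to library size with TMM factors), a log2 fold change (log2 FC) of IKO over WT of -1.41 with a standard error (SE) of 0.18 (edgeR quasi-likelihood test, Benjamini-Hochberg adjusted p = 0.00051). Enterocyte markers (6 genes) summed to between 8340 and 15700 CPM, and no enterocyte marker was at 0. Smooth muscle markers (6 genes, none at 0 in all libraries) summed to 10900 CPM in WT 4, to at most 62.4 CPM in the other WT libraries, to 796 CPM in IKO 1 and to 392 CPM in IKO 2. Fibroblast markers (4 genes) summed to 234 CPM in WT 4 and to at most 43.4 CPM in the others, and leukocyte markers (10 genes) to between 166 and 798 CPM.

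Mitochondrially encoded genes took a similar share of the counts in most libraries, but the larger part of all counts in IKO 4. In WT 1 to WT 7, they took 5.6%, 10.3%, 23.9%, 4.12%, 5.03%, 3.83% and 5.18% of all counts. In IKO 1 to IKO 7, they took 3.49%, 4.14%, 4.04%, 50.3%, 6.10%, 5.54% and 5.84%. IKO 4 and WT 3 therefore stood above the other 12 libraries, 1 in each genotype, and the genotypes overlapped. These 2 libraries also had the fewest counts (15822384 in IKO 4 and 14749669 in WT 3) and the fewest genes with a count (17148 and 16984, against 18899 to 23162 in the others), and IKO 4 had the lowest TMM factor (0.579, against 0.888 to 1.53). The part of library quality in the share was not tested. WT libraries had a mean share of 8.29% ± 7.22 (SD, n = 7). The mean of the IKO libraries was 11.3% ± 17.2 (SD, n = 7), or 4.86% ± 1.10 (SD, n = 6) without IKO 4. The log2 ratio of mitochondrial to other counts differed by 0.08 between IKO and WT means, less than the spread within either genotype (two-sided exact permutation test over 3432 divisions, p = 0.892, also 0.892 when adjusted over 3 shares, where the smallest possible p is 0.000583). Without IKO 4 the difference was -0.54 (exact permutation p = 0.306), and without IKO 4 and WT 3 it was -0.19 (exact permutation p = 0.554).

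**Figure D1:**
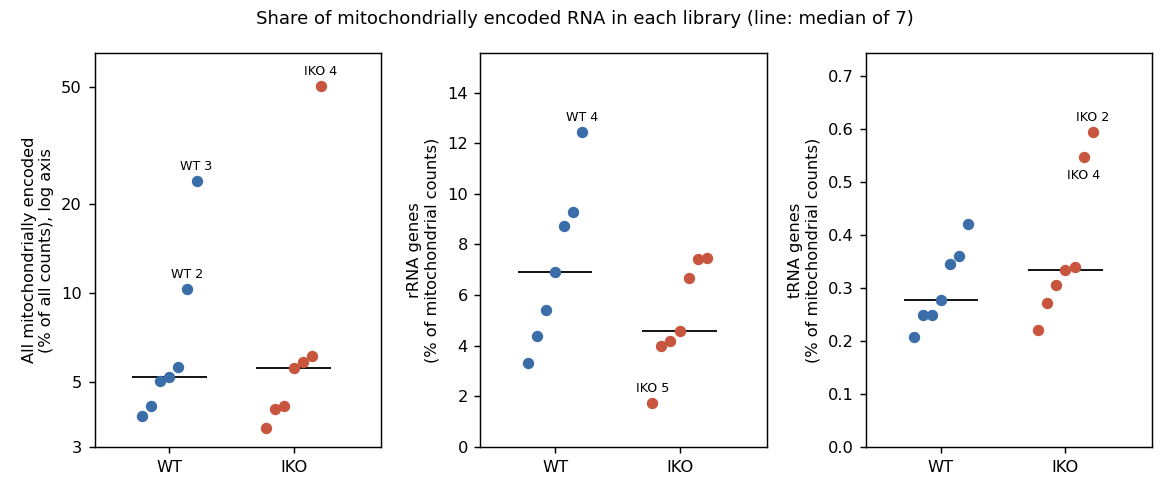
Share of mitochondrially encoded RNA by genotype. Each point is 1 library and the line is the median of 7. The left panel gives all 37 genes as a percentage of all counts on a log axis, with IKO 4 at 50.3%, WT 3 at 23.9% and WT 2 at 10.3%. The middle and right panels give the rRNA and tRNA genes as a percentage of mitochondrial counts, and both genotypes overlap in each.

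The 13 mRNA genes held most of these counts, between 87.2% and 98.1% in each library. How reads that match the nuclear copy were counted is not given, so this share and the share of all counts are those of counted reads. The 2 rRNA genes encode the RNAs of the small (mt-Rnr1) and large (mt-Rnr2) mitochondrial ribosome subunits. They took 3.32%, 9.28%, 8.74%, 12.4%, 4.37%, 5.42% and 6.91% of mitochondrial counts in WT 1 to WT 7, and 4.58%, 7.42%, 3.98%, 6.69%, 1.72%, 7.46% and 4.19% in IKO 1 to IKO 7. WT 4 was highest and IKO 5 lowest, and the mean was 2.06 percentage points lower in IKO mice, a difference that did not pass (two-sided exact permutation test, p = 0.180, adjusted 0.409). The count on mt-Rnr2 was between 1.05 and 1.87 times that on mt-Rnr1. The sources used here do not say how rRNA was removed or mRNA selected before the libraries were made, so the rRNA share is a share of what the libraries kept.

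The 22 tRNA genes took between 0.207% and 0.421% of mitochondrial counts in WT and between 0.222% and 0.595% in IKO libraries. IKO 2 (0.595%) and IKO 4 (0.548%) were above every WT library. The mean was 0.0721 percentage points higher in IKO mice (0.0352 without IKO 2 and 0.0431 without IKO 4), which did not pass (two-sided exact permutation test, p = 0.273, adjusted 0.409). Across the 14 libraries mt-Tp held 57847 counts, mt-Tc 17117 and mt-Tn 11862, of 93061 tRNA counts in all. A space of 32 bases separates mt-Tn from mt-Tc and is known to hold the origin of light-strand replication. mt-Tf, mt-Tv and mt-Td, which carry phenylalanine, valine and aspartate, had 0 counts in all 14 libraries. For counted reads alone, this allows up to 0.139 to 0.203 CPM in a library (3 counts over its total, unscaled, counting error only). All 22 tRNA genes are shorter than a read, so such reads can run into a neighbouring gene. mt-Td also lies between mt-Co1 and mt-Co2, which match the nuclear copy in part or nearly wholly. How reads in several genes or with several positions were counted is not given, so 0 counts do not bound the level of these RNAs. mt-Tk had 2 counts in all, mt-Ts1 had 5, mt-Tr had 14, mt-Tq had 17 and mt-Tt had 18. Of these, mt-Ts1 follows mt-Co1, mt-Tk follows mt-Co2 and mt-Tr lies between mt-Nd3 and mt-Nd4l. Those mRNA genes match the nuclear copy in part or nearly wholly, so the limit given for mt-Td holds here too. Whether the counting used strand is not given in the sources used here, so reads of the − strand genes and of the opposite strand at the same place cannot be told apart.

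Per kilobase of length, mt-Co1 was the highest member, with a median of 12990 CPM per kilobase over the 14 libraries. mt-Cytb followed at 7564, mt-Nd1 at 6343, mt-Nd2 at 3374, mt-Nd6 at 3072, mt-Nd4 at 3061 and mt-Nd5 at 1807 CPM per kilobase. Within a library, mt-Co1 was above mt-Cytb in 12 of 14, mt-Cytb above mt-Nd1 in 12, mt-Nd1 above mt-Nd2 in 14 and mt-Nd4 above mt-Nd5 in 14. mt-Nd2 was above mt-Nd6 in 11 libraries, by a median of 1.08-fold, and mt-Nd6 was above mt-Nd4 in 5, with a median ratio of 0.988, so these 3 genes lay close together. The rRNA genes came lower, with medians of 988.6 (mt-Rnr1) and 977.6 CPM per kilobase (mt-Rnr2), and mt-Rnr1 was above mt-Rnr2 in 11 of 14 libraries. Well below them stood 5 mRNA genes that nearly wholly match the nuclear copy, mt-Co2 with a median of 168.7, mt-Atp6 with 102.3, mt-Co3 with 74.76, mt-Nd3 with 52.76 and mt-Nd4l with 30.14 CPM per kilobase. The last mRNA gene, mt-Atp8, had a median of 1.28 CPM per kilobase and 157 counts in all. It had 0 windows in another annotated transcript but 43 of its 204 bases inside mt-Atp6. How reads with several positions or in several genes were counted is not given in the sources used here, and its part in these levels was not tested.

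**Figure D2:**
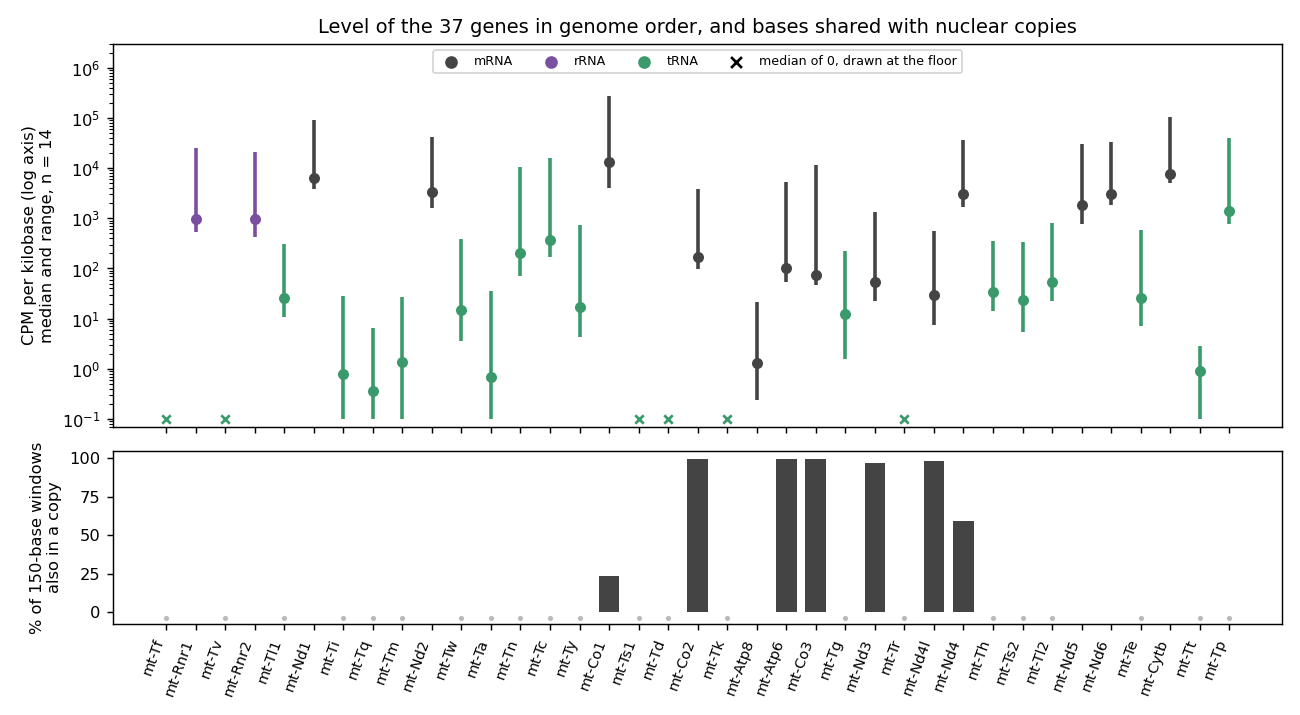
Level of each member in genome order and its match to nuclear copies. The upper panel gives the median (point) and range (line) of CPM per kilobase over 14 libraries on a log axis, with genes at a median of 0 drawn as crosses at the bottom and lines that touch 0.1 starting at 0. The lower panel gives the percentage of 150-base windows also found in another transcript, and grey dots mark tRNA genes, which are shorter than the window. mt-Co2, mt-Atp6, mt-Co3, mt-Nd3 and mt-Nd4l, at 97.0% or more, are lower than mt-Co1, mt-Cytb and mt-Nd1.

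The mix of the 13 mRNAs differed most in WT 4 and IKO 2, and for some genes in IKO 1. mt-Co1, the catalytic core subunit of cytochrome c oxidase, took between 42.7% and 52.7% of mRNA counts in 12 libraries, but 20.9% in WT 4 and 26.5% in IKO 2. Several subunits of complex I took more there. mt-Nd4 took 15.4% in WT 4 and 15.5% in IKO 2 against 5.65% to 9.76% in the others, and mt-Nd2 took 12.0% and 9.53% against 4.38% to 7.26%. mt-Nd6, the single mRNA gene of the − strand, took 5.56% and 4.96% against 2.13% to 3.41%. mt-Nd1 took 15.1% in WT 4, 18.1% in IKO 2 and 15.9% in IKO 1, against 9.92% to 12.9% in the other 11 libraries. mt-Nd5 was not high there, at 5.45% in WT 4, and it was lowest in IKO 2 (3.39%) and IKO 1 (3.9%), against 4.99% to 8.66% in the other 12 libraries. mt-Cytb, the complex III subunit, took 24.7% in WT 4 and 20.8% in IKO 2 against 14.6% to 19.8%. WT 4, IKO 1 and IKO 2 had the highest smooth muscle marker sums (10900, 796 and 392 CPM, against at most 62.4 CPM in the others). IKO 2 also had the lowest enterocyte marker sum (8340 CPM) and the highest sum of nuclear respiratory chain genes (35100 CPM, against 11200 to 21400 CPM in the others). Their part in the mix was not tested. The mix is one of counted reads. Of the 150-base windows, 23.6% of those in mt-Co1 and 59.2% of those in mt-Nd4 also occurred in the nuclear copy. How reads with several positions were counted is not given, and its part in the mix was not tested either.

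Other departures concerned single genes and libraries. mt-Co3, the third core subunit of cytochrome c oxidase, took 1.14% of mRNA counts in IKO 4 and between 0.0901% and 0.176% in the other 13 libraries. mt-Atp6, the subunit of the ATP synthase proton channel, took 0.450% in WT 1, 0.443% in IKO 4 and between 0.0911% and 0.201% elsewhere. Both nearly wholly match the nuclear copy. In WT 1 the copy was high as well, with 4454 counts on Gm10925 and 4513 on mt-Atp6. In IKO 4 the counts on mt-Co3 were 8.21 times those on Gm28437, against 1.2 to 1.7 times in the others, and those on mt-Atp6 were 4.17 times those on Gm10925, against 0.555 to 1.47. mt-Nd4l took 0.0633% in IKO 6 and 0.0440% in IKO 7, above the 0.0243% of the highest WT library, and there it had 3.15 and 2.13 times the counts of its copy Gm10222. The 7 pseudogenes together held between 0.0171% and 0.312% of all counts, highest in IKO 4, and between 0.416% and 0.813% of the number of mitochondrial counts.

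**Figure D3:**
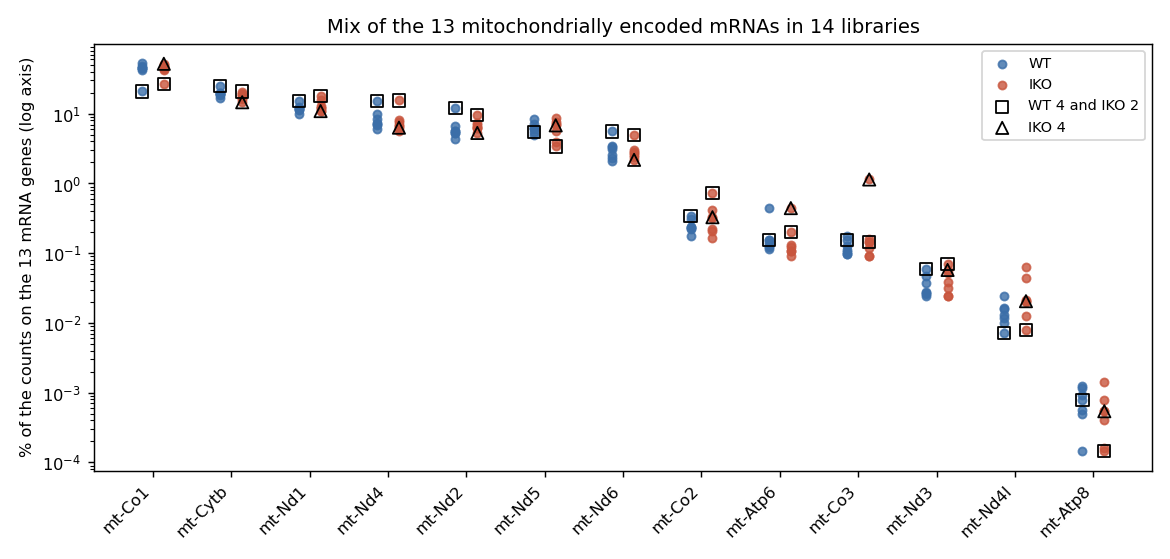
Each mRNA gene as a percentage of the counts on the 13 mRNA genes, on a log axis. Points are libraries, squares mark WT 4 and IKO 2 and triangles mark IKO 4. mt-Co1 is lowest in WT 4 (20.9%) and IKO 2 (26.5%), and mt-Co3 is highest in IKO 4 (1.14%).

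Between the genotypes, 1 of the 25 members with enough counts to be tested passed, and the direction of most values rested on IKO 4. The 25 were 12 mRNA genes, both rRNA genes and 11 tRNA genes, and mt-Atp8 and 11 tRNA genes were not tested. Over all 13846 genes tested, 8.67% passed (edgeR quasi-likelihood test, Benjamini-Hochberg adjusted p under 0.05), 4.38% higher and 4.28% lower in IKO mice. All 25 log2 FC values were above 0, from 0.30 to 4.0 with a median of 1.48, against a median of -0.09 over all genes, and their standard errors ran from 0.61 to 1.35. At an unadjusted p under 0.05 there were 8 of the 25 members, against 30.4% of all genes. In every one of the 25, IKO 4 was the highest library, at 1.87 to 43.2 times the next, and the genotypes overlapped. Without IKO 4, 5 members were above 0 and 20 below, with a median of -0.36, and 0 passed (3 at an unadjusted p under 0.05, edgeR). Over all genes in that fit, 823 of 14128 passed and 4013 were at an unadjusted p under 0.05. Without IKO 4 and WT 3, 16 members were above 0 and 9 below, with a median of 0.13, and 0 passed (3 at an unadjusted p under 0.05). There, 648 of all 13929 genes passed and 3638 were at an unadjusted p under 0.05. DESeq2, which replaced the count of IKO 4 for 20 of the 25 members and that of WT 3 for 1, gave 8 above 0 and 17 below, and 1 passed. In that test 17.9% of all genes passed.

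**Figure D4:**
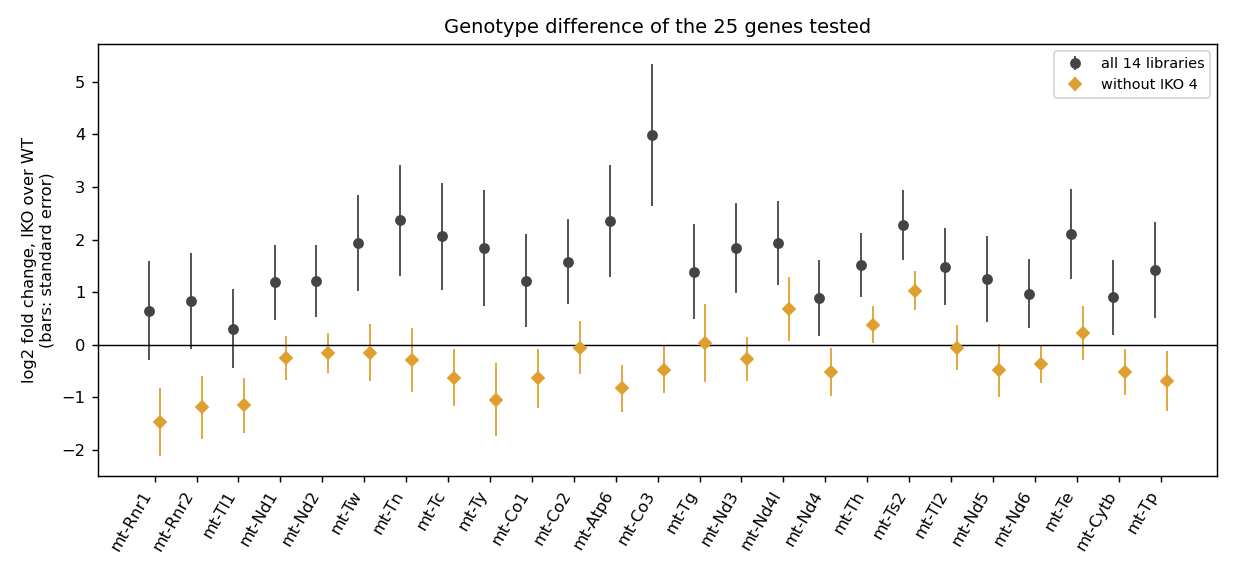
Log2 fold change of IKO over WT for the 25 members tested, in genome order, with standard errors as bars. Circles use all 14 libraries and run from 0.30 to 4.0, and diamonds leave out IKO 4 and run from -1.48 to 1.03, with 20 of the 25 below 0. With WT 3 left out as well (not drawn), 9 of the 25 were below 0.

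mt-Ts2 was the member that passed. Its level was 1.06, 0.322, 1.5, 1.28, 1.10, 0.485 and 0.566 CPM in WT 1 to WT 7 and 2.28, 2.0, 0.942, 20.2, 1.86, 1.89 and 2.05 CPM in IKO 1 to IKO 7. Of the IKO libraries, 6 lay above the highest WT library, and IKO 3 lay below 4 of the WT libraries. Its log2 FC was 2.28 (SE 0.66, edgeR adjusted p = 0.0455). Without IKO 4 it was 1.03 (SE 0.37) and no longer passed (edgeR adjusted p = 0.0961). The call was also lost when any 1 other library but IKO 3 or IKO 6 was left out, with edgeR adjusted p from 0.0390 to 0.0961 over the 14 fits. These values rest on between 5 and 39 counts a library, with 185 in IKO 4. The neighbouring histidine tRNA, mt-Th, which ends where mt-Ts2 begins, had between 0.971 and 4.28 CPM in WT and between 1.5 and 23.2 CPM in IKO libraries, with a log2 FC of 1.52 (SE 0.61, adjusted p = 0.114) and of 0.38 without IKO 4. The leucine tRNA on the other side, mt-Tl2, overlaps mt-Ts2 by 1 base and had a log2 FC of 1.48, or -0.06 without IKO 4. With both IKO 4 and WT 3 left out, mt-Ts2 was at 1.185 (edgeR adjusted p = 0.0788), mt-Th at 0.73 and mt-Tl2 at 0.29.

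The complex I subunits form part of the membrane arm of NADH dehydrogenase. mt-Nd1 had a lowest, median and highest level of 3690, 4604 and 21610 CPM in WT and of 4368, 7346 and 87590 CPM in IKO libraries. Its log2 FC was 1.19 (SE 0.71, adjusted p = 0.265), or -0.26 without IKO 4 and 0.23 without IKO 4 and WT 3. Of the 7 members of this complex, mt-Nd1 to mt-Nd6 and mt-Nd4l, log2 FC values ran from 0.89 (mt-Nd4) to 1.94 (mt-Nd4l) and none passed. mt-Nd4l was alone among the 12 mRNA genes in staying above 0 without IKO 4 (0.68, adjusted p = 0.476), where IKO 6 (33.5 CPM) lay above and IKO 7 (27.6 CPM) just below the highest WT library (28.2 CPM). mt-Cytb had a median of 8094 CPM in WT and 10220 CPM in IKO libraries, with a log2 FC of 0.90 (SE 0.71, adjusted p = 0.406), or -0.52 without IKO 4. Leaving out WT 3 as well gave -0.0076.

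Among the complex IV subunits, mt-Co1 had a lowest, median and highest level of 6358, 19180 and 114800 CPM in WT and of 10730, 22660 and 419300 CPM in IKO libraries, with a log2 FC of 1.22 (SE 0.88, adjusted p = 0.357). mt-Co3 had the largest value of the 25, 4.0 (SE 1.35, adjusted p = 0.0717). Its level was 9219 CPM in IKO 4 and between 36.4 and 214 CPM in the other 13 libraries, and without IKO 4 the log2 FC was -0.48. mt-Co2, which receives electrons from cytochrome c, had 1.58 (adjusted p = 0.195), or -0.06 without IKO 4. mt-Atp6, of ATP synthase, had 2.35 (adjusted p = 0.151), or -0.83 without IKO 4. With both IKO 4 and WT 3 left out, mt-Co1 was at 0.098, mt-Co2 at 0.43, mt-Co3 at -0.073 and mt-Atp6 at -0.50. The 7 pseudogenes of the nuclear copy had log2 FC values from 0.72 to 1.53, all 7 were below 0 without IKO 4, 4 were below 0 without IKO 4 and WT 3, and 0 passed (edgeR, 0 at an unadjusted p under 0.05).

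The rRNA genes showed the lowest values apart from mt-Tl1. mt-Rnr1 had a log2 FC of 0.64 (SE 0.94) and mt-Rnr2 of 0.84 (SE 0.91), with adjusted p of 0.670 and 0.555. Without IKO 4 they were -1.48 and -1.20, the lowest of the 25, with adjusted p of 0.15 and 0.204. With WT 3 left out as well they were -0.69 and -0.51. For mt-Rnr1, WT 3 (9715 CPM), WT 2 (4430 CPM) and WT 4 (2030 CPM) lay above all IKO libraries but IKO 4. mt-Tl1, the leucine tRNA that follows mt-Rnr2 without a gap, was at 0.30 (SE 0.76). It was at -1.16 without IKO 4 and at -0.49 without IKO 4 and WT 3. Of the 3 tRNA genes with the most counts, mt-Tn had a log2 FC of 2.36 (adjusted p = 0.146), mt-Tc of 2.07 (adjusted p = 0.182) and mt-Tp of 1.42 (adjusted p = 0.302), and all 3 were below 0 without IKO 4. Leaving out WT 3 as well gave 0.28 for mt-Tn, -0.01 for mt-Tc and 0.06 for mt-Tp.

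Nuclear genes for the same complexes were read from the same edgeR fit. All of the tested ones had log2 FC values above 0, with IKO 4 and without it. Over all genes, 6020 of 13846 were above 0 with IKO 4 and 6085 of 14128 without it. Calls on the nuclear subunit genes are to be read against the 4.38% of all genes that rose. Of 36 complex I genes, 2 rose, among them Ndufv1 (0.68, adjusted p = 0.0181), which lies in the arm that takes electrons from NADH. That is 5.56% of the list, near the share over all genes, and the median was 0.51. Of 9 complex III genes, 3 rose, Uqcrc1 (0.93), Uqcrfs1 (0.80) and Cyc1 (0.67), with a median of 0.72. Of 11 complex IV genes, 3 rose, Cox5a (1.04), Cox7a2 (0.95) and Ndufa4 (0.91), with a median of 0.71. Of 17 ATP synthase genes, 6 rose, among them Atp5a1 (0.94), Atp5l (0.90) and Atp5mpl (0.88), with a median of 0.68. Without IKO 4 the medians were 0.53, 0.72, 0.78 and 0.66, and 2, 2, 3 and 5 genes passed, all higher. In that fit 5.83% of all genes passed in either direction, and 523 of 14128 rose. With 1 library left out, between 1 (without WT 7) and 7 of the ATP synthase genes passed. Enterocyte markers summed to a median of 11700 CPM in WT and 15300 CPM in IKO libraries, and their part in these values was not tested. For the 12 mitochondrial mRNA genes the sign turned with the libraries kept, since all 12 were above 0 with every library, 1 was above 0 without IKO 4 (median -0.42), and 8 were above 0 without IKO 4 and WT 3 (median 0.11). The nuclear medians without both libraries were 0.51, 0.72, 0.73 and 0.63, and 2, 2, 3 and 1 genes passed, all higher. In that fit 4.65% of all genes passed in either direction, and 426 of 13929 rose. IKO 4 and WT 3 stood out in mitochondrial share. In the sum of these nuclear genes it was IKO 2 that stood out (35100 CPM, against 14500 to 21400 CPM in the other IKO libraries). IKO 3 (14500 CPM) lay below WT 4 (15700 CPM), so the genotypes overlapped in that sum. The difference between nuclear and mitochondrial subunits was not tested.

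**Figure D5:**
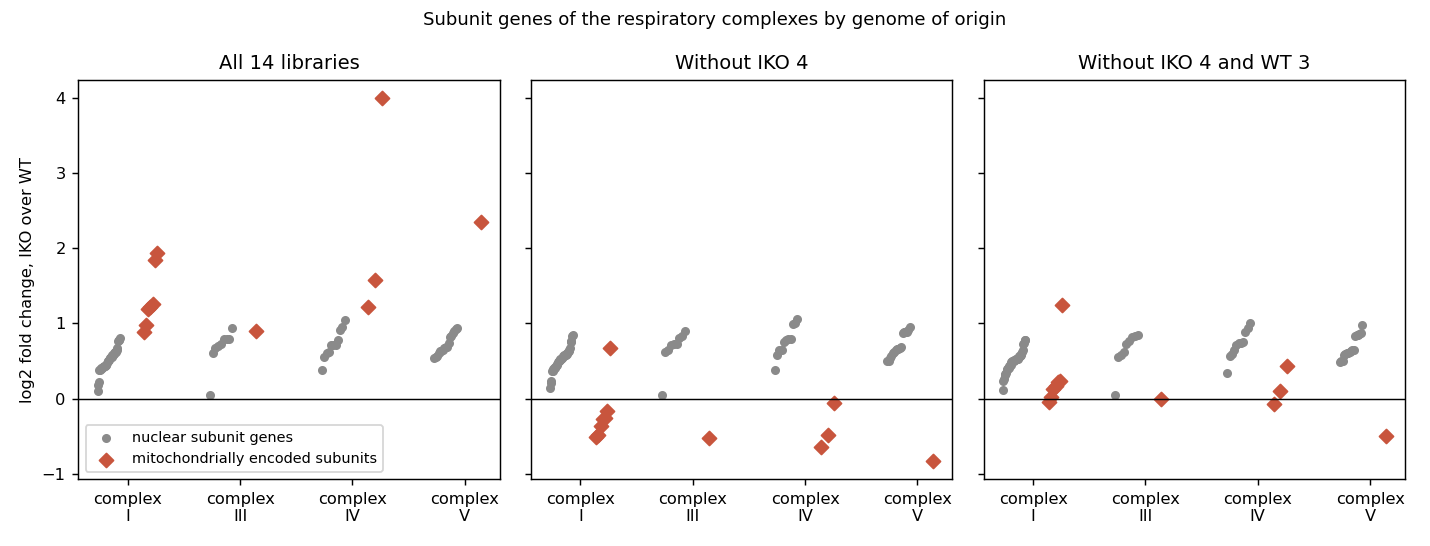
Log2 fold change of IKO over WT for subunit genes of respiratory complexes I, III, IV and V, 1 point per gene. Grey points are nuclear genes and diamonds are mitochondrially encoded genes. With all 14 libraries both lie above 0, and the nuclear genes stay above 0 in all 3 panels. Of the 12 mitochondrial genes, 11 lie below 0 without IKO 4, and 4 lie below 0 without IKO 4 and WT 3.

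Genes that keep and express the mitochondrial genome were read from the same fit, in which 8.67% of all genes passed, and from DESeq2, in which 17.9% did. In the edgeR fit 30.4% of all genes were at an unadjusted p under 0.05. Of 16 genes of transcription and replication, 0 passed (edgeR, 5 at an unadjusted p under 0.05, 1 in DESeq2), 14 were below 0 and the median was -0.22. The smallest adjusted p were those of Ssbp1, the single-stranded DNA binding protein (-0.66, adjusted p = 0.0748), Polg, the DNA polymerase (-0.43, adjusted p = 0.0882) and Mterf3 (-0.57, adjusted p = 0.0886). Of 22 genes of RNA processing and stability, 1 fell, Pnpt1, a polynucleotide phosphorylase (-0.84, adjusted p = 0.0294, or 0.0517 without IKO 4), and 3 passed in DESeq2, 1 higher and 2 lower. Of 17 mitochondrial tRNA synthetases, 0 passed (edgeR, 3 at an unadjusted p under 0.05, 0 in DESeq2). Of 8 regulators of mitochondrial biogenesis, 1 rose, Ppara, a nuclear receptor for fatty acids (1.55, adjusted p = 0.0285, or 0.0521 without IKO 4), and 2 passed in DESeq2, both higher.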

How the data were processed

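RNA of ileum mucosa, from 7 mice of each genotype, was sequenced by the authors as 150-base paired-end reads on a NovaSeq after a NEBNext library kit. The submitters' processing notes name HISAT2 2.0.5, featureCounts 1.5.0-p3, DESeq2 1.16.1 and the build mm10. The deposited counts are whole numbers per gene without normalization, with columns named KO read as IKO. The deposited FPKM were computed by the authors from those counts and gene length and were used here only for alternatives. Strand, multi-mapping and overlap options, and whether reads or read pairs were counted, are not given in the sources used here. The labels call the material intestinal epithelial cells, and the methods call it ileum mucosa. The paper calls its WT mice littermates of the IKO mice and describes them as matched for age and sex. It does not say which of the sequenced mice shared a litter. Nothing else is said of the replicates than 1 library per mouse.

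Genes were filtered with filterByExpr, scaled by TMM and tested with glmQLFTest of edgeR 4.0.16 in R 4.3.3, in a model of genotype alone, and p-values were adjusted by Benjamini-Hochberg over 13846 genes. The method was tested on simulated data, drawn with a single mean per gene in each genotype. No simulated library was set apart as IKO 4 and WT 3 are, so that test does not cover such libraries. A standard error is the log2 fold change divided by the square root of F. Shares were compared by two-sided exact permutation tests over all divisions into 7 and 7. Their p-values were adjusted by Benjamini-Hochberg over the 3 shares. Copies were found by comparing MT genes with GENCODE vM21 transcripts in windows of 150 and 300 bases. Depth, 14749669 to 21557468 counts per library, limits genes under about 10 counts.

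Alternatives were DESeq2 1.42.0, RLE, scaling on nuclear genes alone, no filter, a minimum of 10 counts per sample, limma 3.58.1 on log2 FPKM with pseudocounts of 1 and 0.1 (FPKM above 0.5 in at least 7 samples, or no filter), the mouse number as a block, and leaving out libraries. Every MT gene could be named, with up to the 3 smallest adjusted p of each other list, and 1 single-gene result is not reported here. Members and lists were chosen with earlier results of these data known, so no list is independent support.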

Additional observations from a re-analysis of the deposited data

Results flagged for a closer look

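In a group of 7 libraries, a library was picked out when its distance from the nearest other library, as a share of the whole range of the group, passed the 95% critical value of Dixon's test. Of 82 groups examined (41 measures in each genotype), 45 were picked out and chance alone picks out about 1 in 20 groups, here about 4.1, although the measures share libraries and are not independent. IKO 4 accounted for 28 of the 45.

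The log2 ratio of mitochondrial to other counts gave a share of range of 0.825 for IKO 4. In CPM, IKO 4 was picked out for all 25 members tested, with a share of range of 0.954 for mt-Rnr1, 0.938 for mt-Rnr2, 0.928 for mt-Tl1, 0.955 for mt-Nd1, 0.942 for mt-Nd2, 0.957 for mt-Tw, 0.972 for mt-Tn, 0.981 for mt-Tc, 0.977 for mt-Ty, 0.951 for mt-Co1, 0.911 for mt-Co2, 0.987 for mt-Atp6, 0.994 for mt-Co3, 0.765 for mt-Tg, 0.96 for mt-Nd3, 0.814 for mt-Nd4l, 0.918 for mt-Nd4, 0.938 for mt-Th, 0.931 for mt-Ts2, 0.947 for mt-Tl2, 0.924 for mt-Nd5, 0.94 for mt-Nd6, 0.919 for mt-Te, 0.938 for mt-Cytb, 0.959 for mt-Tp. WT 3 was picked out in CPM with a share of range of 0.579 for mt-Rnr1, 0.701 for mt-Tl1, 0.667 for mt-Ty, 0.635 for mt-Co1, 0.664 for mt-Nd4l, 0.612 for mt-Th, 0.721 for mt-Nd5, 0.586 for mt-Cytb.

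In the mix of the 13 mRNAs, WT 4 had a share of range of 0.684 for mt-Co1, 0.639 for mt-Cytb, 0.609 for mt-Nd4, 0.691 for mt-Nd2, 0.627 for mt-Nd6. IKO 2 had a share of range of 0.642 for mt-Co1, 0.75 for mt-Nd4, 0.689 for mt-Nd6. IKO 4 had 0.932 for mt-Co3, 0.688 for mt-Atp6, and WT 1 had 0.887 for mt-Atp6. mt-Co1 was low in WT 4 and IKO 2, and the other genes named for these libraries were high. WT 4 also had the highest smooth muscle marker sum, 10900 CPM, followed by IKO 1 with 796 CPM and IKO 2 with 392 CPM. IKO 2 had the lowest enterocyte marker sum, 8340 CPM. Their part in these values was not tested.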

How the results depend on the processing

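The direction of the mitochondrial values depended on IKO 4, and the depth limits 12 members that were not tested. RLE scaling and scaling on nuclear genes alone kept the direction of all 25 members, and mt-Ts2 passed in both, in DESeq2, without IKO 3 and without IKO 6. The genes changed numbered 1200, and 508 without a filter, 362 with the mouse number as a block, 648 without IKO 4 and WT 3, 2484 in DESeq2, 614 in limma without a filter and 515 to 1371 with 1 library left out (515 without IKO 5, 526 without IKO 1, 600 without WT 7, 728 without IKO 2, 746 without WT 4, 789 without IKO 7). Of the members, 0 passed with no filter, with at least 10 counts in every sample (which left out mt-Ts2), with the block, without IKO 4 and WT 3 and in all 3 limma fits, and 0 to 1 with 1 library left out. For mt-Ts2 the adjusted p from these fits ran from 0.0363 (DESeq2) to 0.164 (limma without a filter). The log2 mitochondrial share differed by -0.19 without IKO 4 and WT 3 and by -0.54 to 0.43 with 1 library left out, turning below 0 without IKO 4, WT 4 or WT 6. The rRNA and tRNA shares kept their direction and did not pass under any alternative run, and the rRNA difference ran from -2.71 to -1.19 points with 1 library left out (-1.19 without WT 4) and the tRNA difference from 0.0352 (without IKO 2) to 0.0975 points (without IKO 5). In FPKM, which weights short genes, the tRNA difference was 1.12 points. Of the nuclear genes of complexes I, III, IV and V, 2, 3, 3 and 6 passed, against 13, 5, 7 and 13 in DESeq2 and 0, 0, 1 and 0 with the block. Over all genes 8.67% passed in edgeR, 17.9% in DESeq2 and 362 of 13846 with the block, so these counts move with the method.

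Same-numbered WT and IKO libraries showed little shared variation. Correlations of same-numbered deviations ran from -0.305 to 0.232, and 1 of 7 libraries correlated best with its own number. Whether the numbers mark pairs of mice cannot be told from these values. With the replicate block, log2 fold changes were -0.095 for mt-Rnr2, -0.18 for mt-Rnr1, -0.056 for mt-Atp6, -0.24 for mt-Tl1, and in the paired test of shares the differences were 0.08 for all mitochondrial counts (exact permutation p = 0.891), -2.06 points for rRNA and 0.07 points for tRNA.

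Log2 fold changes turned below 0 for these members, and the cause was not tested. Without IKO 4 and WT 3, where the other 16 members were above 0, they were -0.0076 for mt-Cytb, -0.048 for mt-Nd4, -0.51 for mt-Rnr2, -0.69 for mt-Rnr1, -0.073 for mt-Co3, -0.50 for mt-Atp6, -0.01 for mt-Tc, -0.49 for mt-Tl1, -0.073 for mt-Ty. In DESeq2, which replaced the count of IKO 4 for 20 members, they were -0.60 for mt-Co1, -0.48 for mt-Cytb, -0.23 for mt-Nd1, -0.45 for mt-Nd5, -0.14 for mt-Nd2, -0.33 for mt-Nd6, -0.44 for mt-Co3, -0.041 for mt-Co2, -0.65 for mt-Tp, -0.74 for mt-Atp6, -0.59 for mt-Tc, -0.27 for mt-Tn, -0.24 for mt-Nd3, -0.035 for mt-Tl2, -1.09 for mt-Tl1, -0.059 for mt-Ty, -0.14 for mt-Tw. In limma they were -0.0016 for mt-Rnr2, -0.15 for mt-Rnr1, -0.17 for mt-Tl1 with a pseudocount of 1, with or without the filter, and -0.0018 for mt-Rnr2, -0.15 for mt-Rnr1, -0.18 for mt-Tl1 with 0.1. With 1 library left out, they ran from -0.64 to 1.96 for mt-Co1, -0.52 to 1.42 for mt-Cytb, -0.26 to 1.68 for mt-Nd1, -0.52 to 1.36 for mt-Nd4, -0.49 to 1.88 for mt-Nd5, -0.16 to 1.6 for mt-Nd2, -1.20 to 1.53 for mt-Rnr2, -1.48 to 1.43 for mt-Rnr1, -0.36 to 1.36 for mt-Nd6, -0.48 to 4.41 for mt-Co3, -0.059 to 2.08 for mt-Co2, -0.69 to 2.17 for mt-Tp, -0.83 to 2.68 for mt-Atp6, -0.63 to 2.69 for mt-Tc, -0.29 to 2.94 for mt-Tn, -0.27 to 2.29 for mt-Nd3, -0.058 to 1.83 for mt-Tl2, -1.16 to 0.98 for mt-Tl1, -1.05 to 2.81 for mt-Ty, -0.16 to 2.27 for mt-Tw, and in each of these the values below 0 came without IKO 4.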
